A study of Mus musculus with 24 samples.

Results

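The AP-1 (activator protein 1) genes followed here are Jun, Junb, Jund, Fos, Fosb, Fosl1, Fosl2, Jdp2 and Batf. They were taken by gene symbol from the probe annotation, where they are 9 of 15161 named genes, and 11 of the 24611 probes carry one of these symbols. Fosl2 has 3 probes and each other gene has 1. The RNA came from BV-2, a mouse microglial line immortalized with the v-raf and v-myc oncogenes, and this background is shared by every group. The array labels give untreated cells (Cntr, 6 arrays), the bacterial endotoxin lipopolysaccharide (LPS, 6 arrays), THC (4 arrays), THC_LPS (4 arrays), CBD (2 arrays) and CBD_LPS (2 arrays). Per the methods of the study, the phytocannabinoids tetrahydrocannabinol (THC) and cannabidiol (CBD) were given at 10 µM for 6 h, LPS was given at 100 ng/ml for 4 h, and in the combined groups the cannabinoid preceded LPS by 2 h. THC and CBD are isomers, and CBD has a free phenol where THC has a closed ring. The methods describe replicated experiments on independent arrays and do not say how cultures and RNA extractions were shared among them, so the p-values below cover the spread between these arrays, part of which may be technical.

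AP-1 factors are basic leucine zipper (bZIP) proteins that bind DNA as dimers. Jun proteins pair with one another or with Fos proteins, Jdp2 and Batf pair with Jun proteins, and the partner decides how strongly a dimer drives transcription. Fos and Jun are classical immediate early genes, whose transcripts rise and decay quickly after a stimulus, and in macrophages and microglia Toll-like receptor signals reach AP-1 through MAP kinases. Fosl1 and Fosl2 encode Fra-1 and Fra-2, Fos relatives without the strong activation domain of Fos. Jdp2 (Jun dimerization protein 2) is best known as a repressor of AP-1 transcription.

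Fos and Jdp2, the members called with CBD alone, lie close together in the genome. In the RefSeq annotation of GRCm38.p6 the nearest Jdp2 start site lies 125.2 kb from that of Fos on chromosome 12. There are 2 long noncoding RNA genes between Fos and Jdp2, and Batf starts 212.8 kb from Fos. RefSeq promoter windows, 250 bases before to 50 bases after a start site, were given for 8 of the 9 genes and were searched on both strands for 7 motifs, which were picked with the results known. These were the AP-1 site TGACTCA, the cyclic AMP response element TGACGTCA, its variant TGACATCA known from the Jun promoter, the shorter TGACGT that the full element contains, the stress element TGATGNAA bound by C/EBP and ATF dimers, the NF-kB motif and the CArG box bound by serum response factor. The windows of Fos, Jdp2 and Jun are shown because Fos and Jdp2 were called with CBD alone and Jun encodes a dimer partner of both, and capitals mark every match.
Fos, chr12:85473640-85473939, plus strand: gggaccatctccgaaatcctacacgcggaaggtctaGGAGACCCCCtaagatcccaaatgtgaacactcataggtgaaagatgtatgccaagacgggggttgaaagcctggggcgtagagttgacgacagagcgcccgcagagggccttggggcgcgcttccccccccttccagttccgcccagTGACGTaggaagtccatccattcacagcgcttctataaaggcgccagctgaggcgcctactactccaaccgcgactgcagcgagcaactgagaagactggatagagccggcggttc
Jdp2, chr12:85599166-85599465, plus strand, the second of its 3 windows: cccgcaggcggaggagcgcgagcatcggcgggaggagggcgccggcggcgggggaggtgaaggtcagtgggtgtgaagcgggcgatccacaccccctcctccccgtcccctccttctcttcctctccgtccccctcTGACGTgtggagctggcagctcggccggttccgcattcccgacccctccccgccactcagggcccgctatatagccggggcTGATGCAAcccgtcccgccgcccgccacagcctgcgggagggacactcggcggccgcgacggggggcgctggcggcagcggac
Jun, chr4:95052173-95052472, minus strand: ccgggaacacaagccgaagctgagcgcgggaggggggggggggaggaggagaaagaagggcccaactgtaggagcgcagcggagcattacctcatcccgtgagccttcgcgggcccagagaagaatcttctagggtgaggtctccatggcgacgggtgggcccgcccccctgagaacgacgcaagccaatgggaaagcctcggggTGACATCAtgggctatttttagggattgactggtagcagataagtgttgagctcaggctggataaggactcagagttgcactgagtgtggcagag
The Fos window held TGACGT starting at base -66 from the start site and an NF-kB match at -214. The Jdp2 window held TGACGT at -114 and TGATGCAA at -33, and the Jun window held TGACATCA at -45. Of all 32851 windows, 7.51% hold TGACGT, 4.51% the NF-kB motif, 3.97% TGATGNAA and 3.62% TGACATCA. The Batf window also held TGACGT, the Fosb and Fosl2 windows held NF-kB matches, and the windows of Junb and Jund held none of the 7 motifs. Windows 1 and 3 of Jdp2 also held none of the 7 motifs, so the Jdp2 window shown is the one with matches. The shares of all windows are per window, and Jdp2 had 3. A match of letters is a description and no evidence of binding.

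BV-2 cells transcribed 6 AP-1 genes at levels the arrays measured everywhere. Jun, Junb, Jund, Fos, Jdp2 and the brightest Fosl2 probe were detected on 24 of 24 arrays, at a detection p under 0.05 against the negative control beads. Fosl1 was detected on 9 arrays, Batf on 2 and Fosb on 0. The other 2 Fosl2 probes were detected on 9 and 0 arrays and were called in no comparison described here, so Fosl2 is given from the brightest one. The values are the deposited log2 signals, which are quantile normalized and carry no background correction, so a fold understates the change of a dim gene. The dimmest detected probe of an array lay between 7.01 and 7.33 on this scale. Probes differ in brightness for the same amount of RNA, so levels are compared only within a gene.

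**Figure D1:**
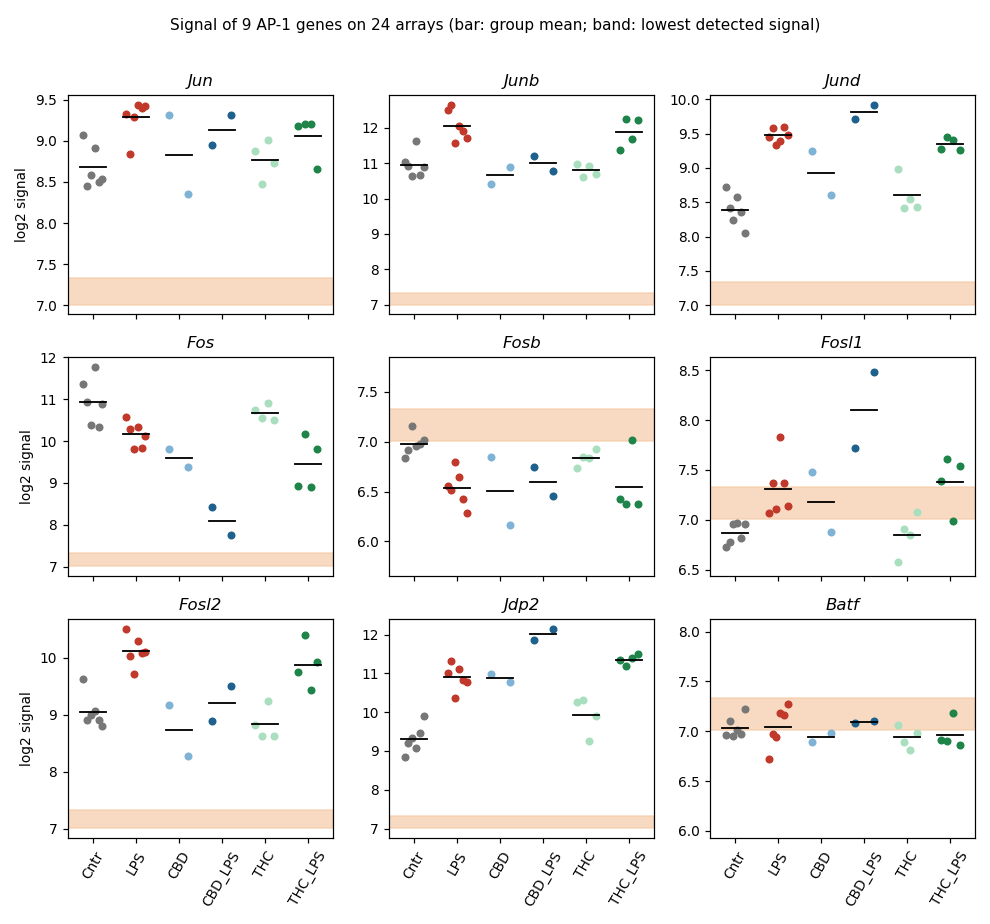
Log2 signal of each AP-1 gene on every array, 1 panel per gene with the 6 groups on the horizontal axis. Points are arrays, black bars are group means, and the shaded band spans the dimmest detected signal of the arrays (7.01 to 7.33). Fosb stays under the band on most arrays, Batf lies under or in it, and Fosl1 lies under, in or above it.

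The cells carried microglial transcripts and few of other cell types. Of 13 measured markers of microglia and macrophages, 11 were detected on at least 1 array, while P2ry12 and Sall1 were not. Among markers of other cells, 1 of 6 was detected for astrocytes, 1 of 6 for neurons, 0 of 4 for oligodendrocytes, 0 of 5 for fibroblasts and 1 of 3 for T cells, and no marker of these 5 lists was called in any comparison below. Arrays of 1 group correlated at 0.986 to 0.996 across probes, and between 40.6% and 44.8% of probes were detected on an array. The 2 arrays of each CBD group stood apart in Ddit3, the stress factor CHOP, with 13.26 and 11.10 on CBD replicates 1 and 2, and 10.42 and 12.72 on CBD_LPS replicates 1 and 2.

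LPS raised most AP-1 transcripts and lowered Fos. Against Cntr, 8 of 9 genes were called (limma, p adjusted over all 24611 probes by Benjamini-Hochberg and under 0.05), where 13.6% of all probes were called. Jun, Junb, Jund, Fosl1, Fosl2 and Jdp2 were higher, against 5.63% of all probes, and Fos and Fosb were lower, against 7.94%. The median log2 change over the 9 genes was 0.61, and over all probes it was -0.0083. In bulk samples like these, fewer cells with a transcript and less of it per cell cannot be told apart.

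Jdp2 rose most among the 9. Its log2 signal ran from 8.84 over a median of 9.27 to 9.91 in Cntr, and from 10.35 over 10.92 to 11.31 with LPS. The groups did not overlap, and the log2 change was 1.59 ± 0.17 (SE, adjusted p = 2.14e-07), a 3.02-fold rise. Jund, the most steadily expressed Jun protein in many cells, ran from 8.06 over 8.39 to 8.72 in Cntr and from 9.34 over 9.46 to 9.60 with LPS. It rose 2.11-fold (log2 change 1.08 ± 0.11, adjusted p = 1.22e-07), again without overlap, and the LPS arrays were close together, with an SD of 0.10 against 0.24 in Cntr.

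Junb, a Jun protein that can oppose Jun at shared sites, ran from 10.64 over 10.89 to 11.62 in Cntr and from 11.57 over 11.97 to 12.64 with LPS. It rose 2.15-fold (log2 change 1.10 ± 0.19, adjusted p = 0.000119), and the groups touched, because Cntr replicate 4 at 11.62 lay just above LPS replicate 3 at 11.57. Fosl2 ran from 8.80 over 8.95 to 9.63 in Cntr and from 9.72 over 10.10 to 10.51 with LPS, a 2.10-fold rise without overlap (log2 change 1.07 ± 0.18, adjusted p = 8.19e-05). Jun moved least among the genes detected throughout. It ran from 8.45 over 8.56 to 9.07 in Cntr and from 8.84 over 9.36 to 9.43 with LPS, with LPS replicate 2 lowest of its group and inside the Cntr range (log2 change 0.61 ± 0.15, adjusted p = 0.00554). Under median scaling, which replaces the quantile step, its adjusted p was 0.152.

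Fos ran the other way. It lay between 10.32 and 11.77 in Cntr, with a median of 10.91, and between 9.81 and 10.58 with LPS, with a median of 10.20. It fell by 0.78 ± 0.23 on the log2 scale (adjusted p = 0.0226), and the LPS arrays reached into the lower part of the Cntr range. The call was lost when any 1 of Cntr replicates 1 and 4 or LPS replicates 3 and 5 was left out, with an adjusted p of up to 0.0710. Cntr replicates 1 and 4 were the highest Fos arrays of the series, at 11.36 and 11.77.

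The dim genes allow no fold in this comparison. Fosl1 was detected on 0 of 6 Cntr arrays (6.73 to 6.96) and on 3 of 6 LPS arrays (7.07 to 7.83), so no fold is given. Its means were 6.87 in Cntr and 7.31 with LPS, and it was called higher with LPS by limma (adjusted p = 0.0344). That call was lost without any 1 of Cntr replicates 1, 2 and 5 or LPS replicates 2, 4 and 5, with an adjusted p of up to 0.102, and under background correction from the detection p-values (0.218). Fosb was called lower at an adjusted p of 0.00796, with means of 6.54 and 6.98, but it was not detected on any array, so no fold is given. Batf, at 6.72 to 7.27 on the LPS arrays and 6.95 to 7.22 on the Cntr arrays, was not called.

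CBD without LPS moved the chromosome 12 neighbours Fos and Jdp2 in opposite directions. Against Cntr, 2 of 9 genes were called, Jdp2 higher and Fos lower, where 2.83% of all probes were called, 1.71% higher and 1.13% lower. Jdp2 stood at 10.99 and 10.77 on the 2 CBD arrays, both above every Cntr array, a 2.99-fold rise (log2 change 1.58 ± 0.24, adjusted p = 0.000559). The CBD mean of 10.88 lay beside the LPS mean of 10.89, and the difference between them was 0.01 (95% interval -0.49 to 0.52). Fos stood at 9.82 and 9.39, both below every Cntr array, and fell by 1.34 ± 0.33 on the log2 scale (adjusted p = 0.0230).

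The Jun and Fosl2 probes differed between the 2 CBD arrays. Jun stood at 9.31 and 8.36, Jund at 9.24 and 8.61, Fosl2 at 9.17 and 8.28, and Fosl1 at 7.48 and 6.87. Replicate 1, the array with more Ddit3, was the higher one for all 4 genes, and none of them was called, with adjusted p-values of 0.879, 0.0757, 0.707 and 0.603. Junb went the other way, with 10.42 on replicate 1 and 10.90 on replicate 2, and was not called either. The bearing of Ddit3 on these differences was not tested. Without CBD replicate 1 neither Fos (adjusted p = 0.361) nor Jdp2 (0.107) was called, and without CBD replicate 2 Fos was not (0.168). Fitted to the CBD and Cntr arrays alone, Fos had an adjusted p of 0.0588.

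Under LPS, CBD took down Fos, Junb and Fosl2 and added to Jdp2 and Fosl1. In CBD_LPS against LPS 5 of 9 genes were called, where 3.90% of all probes were. The 2 higher genes stand against 2.41% of all probes and the 3 lower ones against 1.50%, and the median log2 change was 0.05 over the 9 genes and -0.01 over all probes. Fos was at its lowest in this group, at 8.42 and 7.76, while the lowest of the LPS arrays stood at 9.81. It was 4.21-fold lower (log2 change -2.07 ± 0.33, adjusted p = 0.000536).

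Junb stood at 11.20 and 10.79 in CBD_LPS, inside the range of the Cntr arrays and below every LPS array. It fell by 1.07 ± 0.27 on the log2 scale (adjusted p = 0.0223), and CBD_LPS differed from Cntr by 0.04 (95% interval -0.51 to 0.59, adjusted p = 0.965). Fosl2 behaved alike, at 8.89 and 9.51, below every LPS array (log2 change -0.92 ± 0.25, adjusted p = 0.0374) and 0.15 above the Cntr mean (95% interval -0.37 to 0.67, adjusted p = 0.813). The Fosl2 call was lost under background correction from the detection p-values, median scaling, array weights and a block for the replicate number. It was also lost without any 1 of 4 LPS arrays or either CBD_LPS array.

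Jdp2 reached its highest level of the series in CBD_LPS, at 11.87 and 12.15, above every LPS array (log2 change 1.11 ± 0.24, adjusted p = 0.00968) and 6.53-fold above Cntr (adjusted p = 3.40e-08). Fosl1 was detected on both CBD_LPS arrays, at 7.72 and 8.48, and was called higher than with LPS (adjusted p = 0.0239), although LPS replicate 4 at 7.83 lay above the lower of them. The means were 8.10 and 7.31, and no fold is given because only 3 of the 6 LPS arrays detected it. Under background correction from the detection p-values the log2 difference was 0.30 (adjusted p = 0.0191), against 0.79 in the deposited values. That correction adds an offset of 16, and no probe lies below 7.54 after it. Fosl1 then ran from 7.63 to 8.27, so these differences are not on the same scale. Against Cntr, where it was not detected, Fosl1 was at least 1.91-fold higher (adjusted p = 9.54e-05).

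Jun and Jund did not follow Junb. Jun stood at 8.95 and 9.31 in CBD_LPS and differed from LPS by -0.15 (95% interval -0.59 to 0.29, adjusted p = 0.815). Jund stood at 9.72 and 9.92, above every LPS array, with a difference of 0.34 (95% interval 0.01 to 0.68) that was not called (adjusted p = 0.285).

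The 5 calls rest on 2 arrays that differ from each other. CBD_LPS replicate 2, which had more Ddit3 than replicate 1, was the lower array for Fos and Junb and the higher for Jdp2, Fosl1, Fosl2, Jun and Jund, and the part of Ddit3 in these differences was not tested. Without replicate 2 none of the 9 genes was called, with adjusted p-values of 0.116 for Fos, 0.350 for Jdp2, 0.511 for Junb, 0.710 for Fosl1 and 0.152 for Fosl2, and 63 probes were called in all instead of 961. Without replicate 1 only Fosl2 of the 5 was lost (0.328). Array weights left 2 calls, Fos and Jdp2, and a fit to the CBD_LPS and LPS arrays alone left 3.

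**Figure D2:**
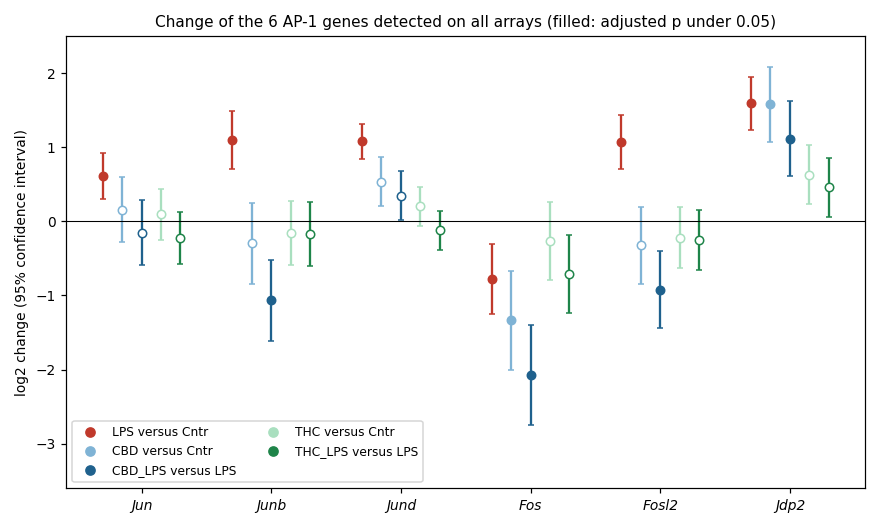
Log2 change of the 6 AP-1 genes detected on all arrays in 5 comparisons, with 95% confidence intervals from limma, and filled symbols where the adjusted p was under 0.05. Fos lies below 0 and Jdp2 above 0 in all 5, whereas Junb and Fosl2 rose with LPS (1.10 and 1.07) and were lower when CBD preceded LPS (-1.07 and -0.92).

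No AP-1 gene was called with THC, with or without LPS. In THC against Cntr 0 of 9 genes were called by limma, where 0.00406% of all probes were, and 1 gene, Jdp2, had an unadjusted p under 0.05. Jdp2 stood at 10.25, 10.31, 9.27 and 9.90 with THC, and 2 of the 4 arrays lay above every Cntr array (log2 change 0.63 ± 0.19, adjusted p = 0.999). It also was the 1 gene that met the threshold the study used, an unadjusted p of 0.005 or less, as 0.382% of all probes did. In THC_LPS against LPS 0 of 9 genes and 0% of all probes were called, and 2 genes, Fos and Jdp2, had an unadjusted p under 0.05. Fos was uneven in THC_LPS, at 8.92, 10.16, 8.91 and 9.82, so that replicates 1 and 3 lay below every LPS array and replicates 2 and 4 did not (log2 change -0.71 ± 0.26, adjusted p = 1.00). Jdp2 was even, at 11.33, 11.19, 11.40 and 11.50, and 3 of these arrays lay above every LPS array (log2 change 0.46 ± 0.19, adjusted p = 1.00). Every alternative setting gave 0 calls in THC_LPS against LPS.

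At the same dose and time CBD and THC differed in Fos and Jdp2 by amounts that did not pass the test. In CBD against THC 0 of 9 genes were called, where 0.784% of all probes were, and Fos and Jdp2 were the 2 genes with an unadjusted p under 0.05. Jdp2 was higher on both CBD arrays than on any THC array (difference 0.95, 95% interval 0.41 to 1.49, adjusted p = 0.0855), and Fos was lower on both (difference -1.07, 95% interval -1.79 to -0.36, adjusted p = 0.183). Both met the unadjusted threshold of 0.005, with 2.71% of all probes. For Jun the difference was 0.06 (95% interval -0.41 to 0.53), and for Junb it was -0.14 (95% interval -0.72 to 0.44).

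With LPS present the same comparison gave 0 calls of 9, where 0.922% of all probes were called, and 6 genes had an unadjusted p under 0.05. At the unadjusted threshold of 0.005 there were 3, Fos, Junb and Fosl1, with 3.13% of all probes. Fos was lower in CBD_LPS than on any THC_LPS array (difference -1.36, 95% interval -2.08 to -0.65) and missed the threshold at an adjusted p of 0.0572. Junb was lower on both arrays as well (difference -0.89, 95% interval -1.48 to -0.31, adjusted p = 0.148), and Jdp2 (0.65, 95% interval 0.12 to 1.19, adjusted p = 0.291) and Jund (0.47, 95% interval 0.12 to 0.82, adjusted p = 0.231) were higher on both. Fos was called in this comparison with normexp background correction (adjusted p = 0.0493) and after probes detected on fewer than 2 arrays were removed (0.0420).

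The size of the LPS response was not shown to depend on either cannabinoid. The test of that difference called 0 of 9 genes with CBD and 0 of 9 with THC, and 0% of all probes each time. At an unadjusted p under 0.05 there were 1 and 0 AP-1 genes, and the 1 was Fosb, which no array detected. For Junb the response was 0.77 smaller on the log2 scale with CBD than without (95% interval -1.55 to 0.01), for Fos it differed by -0.74 (95% interval -1.69 to 0.22) and for Fosl2 by -0.60 (95% interval -1.33 to 0.13), all at an adjusted p of 1.00. Within the CBD groups, LPS lowered Fos by a log2 change of -1.51 ± 0.40 (adjusted p = 0.0329) and raised Jund (0.89 ± 0.20, 0.00856), Fosl1 and Jdp2 (1.13 ± 0.30, 0.0345), 4 calls where 3.30% of all probes were called. Within the THC groups it lowered Fos (-1.22 ± 0.28, adjusted p = 0.00499) and raised Junb, Jund, Fosl2 and Jdp2, 5 calls where 8.77% of all probes were called.

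Ordered by group mean, no gene had neighbouring groups whose difference was called by limma. The arrays of some neighbours did not overlap all the same, those of CBD_LPS and THC_LPS for Fos, Junb, Fosl1 and Jdp2, those of CBD and THC for Jdp2, and those of CBD_LPS and LPS and of THC_LPS and CBD for Jund. Fos ran from Cntr (10.94 ± 0.56, SD, n = 6) over THC (10.67 ± 0.18, n = 4), LPS (10.16 ± 0.30, n = 6), CBD (9.60 ± 0.30, n = 2) and THC_LPS (9.45 ± 0.64, n = 4) to CBD_LPS (8.09 ± 0.47, n = 2). Jdp2 ran from CBD_LPS (12.01 ± 0.19) over THC_LPS (11.36 ± 0.13), LPS (10.89 ± 0.33), CBD (10.88 ± 0.15) and THC (9.93 ± 0.48) to Cntr (9.30 ± 0.36), the order of Fos read backwards except that LPS and CBD change places. Junb ran from LPS (12.06 ± 0.43) over THC_LPS (11.89 ± 0.43) to CBD_LPS (10.99 ± 0.29), Cntr (10.96 ± 0.36), THC (10.80 ± 0.17) and CBD (10.66 ± 0.34), and Fosl2 had that same order.

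Across all 24 arrays the levels of Fos and Jdp2 ran opposite, with a Pearson r of -0.815, and those of Junb and Fosl2 ran together, with an r of 0.821. Jdp2 and Jund correlated at 0.831. These points share groups, so the values mostly carry the treatments, and they are given as descriptions. Within groups, after each group mean was removed, Fos and Jdp2 were at -0.18 and Junb and Fosl2 at 0.26, whereas Fos and Junb, whose levels correlated at 0.0049 over the series, were at 0.784. The median of such within-group values between Fos and the 8933 other probes detected on all arrays was -0.11 and their 95th percentile 0.63.

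**Figure D3:**
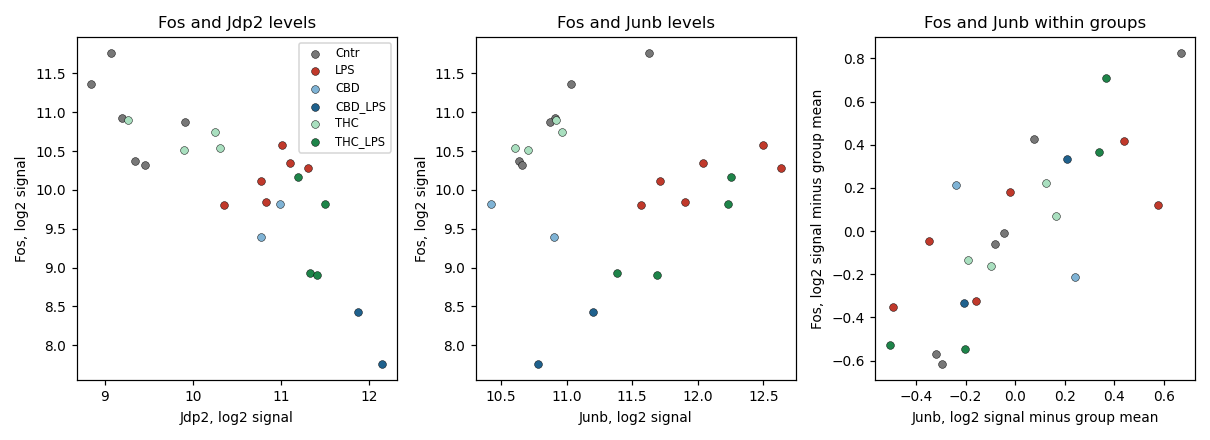
Fos against Jdp2 and against Junb on 24 arrays, as log2 signals in the left and middle panels and as deviations from the group mean in the right panel, coloured by group. The left panel falls from the Cntr arrays to the CBD_LPS arrays (r = -0.815), the middle one has no single trend (r = 0.0049), and the right one rises (r = 0.784).

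Transcripts of other bZIP proteins were called higher in LPS and in CBD against Cntr and in CBD_LPS against LPS. None of those listed was called lower in these comparisons. The gene lists that follow, like the members, were chosen with results of these data known, and each count is set beside the share of all probes called in the same direction. Of 13 measured bZIP genes 5 were higher with LPS and 0 lower, against 5.63% and 7.94% of all probes (median log2 change 0.35). Batf2 was detected on 6 of 6 LPS arrays and on no Cntr array (at least 2.92-fold, adjusted p = 2.18e-05), the stress-induced Atf3 rose 3.00-fold (1.01e-05) and Maff, a small Maf protein, rose 2.71-fold (2.43e-11). Cebpb and Nfe2l2 were the other 2. With CBD alone 6 were higher and 0 lower, against 1.71% and 1.13% of all probes (median 0.51), and in CBD_LPS against LPS 5 were higher and 0 lower, against 2.41% and 1.50% (median 0.11). Ddit3 rose 12.01-fold with CBD (adjusted p = 2.63e-05), and Atf4 (2.77-fold, 0.00681) and Atf5 (2.55-fold, 0.00102), factors of the integrated stress response, rose as well, as did Cebpb, Mafg and Atf3. The same 3 led in CBD_LPS against LPS, at 5.74-fold, 2.84-fold and 2.13-fold, joined by Mafg and Bach1.

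Of 21 measured genes of the MAP kinase cascade, 2 were higher and 3 lower with LPS, where 5.63% and 7.94% of all probes were (median -0.05). Map3k8, the kinase Tpl2 that links Toll-like receptors to ERK, rose 4.21-fold (adjusted p = 3.67e-07), Mapkapk2, a substrate kinase of p38, rose 2.52-fold (7.68e-09), and Map3k1, a kinase above JNK, fell by 0.91 on the log2 scale (5.28e-06). Mapk9 (-0.44) and Mapk14 (-0.42) were the other 2 that fell. With CBD alone 0 of 21 were called by limma, where 2.83% of all probes were, and 2 had an unadjusted p under 0.05. In CBD_LPS against LPS only Mapk9, which encodes JNK2, was called, 1.42-fold higher (0.0153), where 3.90% of all probes were called.

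Of 9 measured factors known to act on the Fos and Jun promoters, 3 were higher and 1 lower with LPS, against 5.63% and 7.94% of all probes (median 0.07), and 0 were higher and 3 lower in CBD_LPS against LPS, against 2.41% and 1.50% (median -0.13). Srf, which binds the serum response element of Fos, fell by 0.90 ± 0.21 on the log2 scale when CBD preceded LPS (adjusted p = 0.0147), and Creb1, which binds cyclic AMP response elements, fell by 0.45 ± 0.10 (0.0112). Mef2c, which acts on the Jun promoter, was the third (-0.91, 0.0252). Mef2c was also lower with LPS (-1.10, 2.05e-05) and with CBD (-1.04, 0.0136), and Stat3 (0.74), Crem (0.69) and Creb1 (0.41) were the 3 that rose with LPS.

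Of 15 other immediate early genes, 4 were higher and 1 lower with LPS, against 5.63% and 7.94% of all probes (median 0.02). Ier3 rose 8.19-fold (adjusted p = 2.49e-14), Csrnp1 4.79-fold (1.40e-11) and Zfp36, which destabilizes cytokine transcripts, 2.77-fold (1.85e-07). Gadd45b was the other that rose and Nr4a2 the one that fell (-0.46, 0.0125). In CBD_LPS against LPS 0 of the 15 were called by limma, where 3.90% of all probes were, and 2 had an unadjusted p under 0.05. Of 8 measured regulators of Jun and Fos protein, 1 was higher and 1 lower with LPS, against 5.63% and 7.94% of all probes. With CBD alone 1 was higher and 0 lower, against 1.71% and 1.13%. In CBD_LPS against LPS 1 was higher and 1 lower, against 2.41% and 1.50%. Trib3, a pseudokinase, was detected on both CBD arrays and on no Cntr array (at least 8.11-fold higher, adjusted p = 2.21e-06). Its means in CBD_LPS and LPS were 10.005 and 6.91 (4.15e-06), with no fold given because it was detected on 1 of 6 LPS arrays. Fbxw7, the ubiquitin ligase subunit that marks Jun for degradation, rose with LPS (0.39, 0.00140) and was lower in CBD_LPS than with LPS (-0.49, 0.0161), and Ncoa1, a coactivator, fell with LPS (-0.57, 0.00211).

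Of 21 measured textbook AP-1 targets, 8 were higher and 1 lower with LPS, against 5.63% and 7.94% of all probes (median 0.32). The collagenase Mmp13 went from a mean of 7.79 to 12.25 (adjusted p = 0.000242), Il6 was detected on 6 of 6 LPS arrays and on no Cntr array (at least 7.82-fold, 9.57e-10), and Ptgs2, the inducible cyclooxygenase, went from 6.96 to 9.91 (1.41e-08). Ccnd1, which encodes cyclin D1, was the gene that fell (-1.17, 1.74e-05). In CBD_LPS against LPS 4 were higher and 1 lower, against 2.41% and 1.50% (median -0.20). Metallothionein Mt2 rose 7.83-fold (4.43e-09) and Vegfa 4.58-fold (4.67e-07), Hmox1 and Nqo1 were the other 2, and Ccnd1 fell by 1.64 ± 0.24 on the log2 scale (0.000290). With CBD alone 5 were higher and 2 lower, against 1.71% and 1.13% (median -0.02), led by Mt2 (7.97-fold, 3.69e-09), the chemokine gene Ccl2, which fell by 1.85 (0.0370), and Cdkn1a (3.45-fold, 0.00202). Microglial markers moved too. With LPS 3 of 13 were higher and 2 lower, against 5.63% and 7.94% of all probes (median -0.24), Spi1 (0.89), Cx3cr1 and Sall1, which no array detected, higher and Mef2c and Tmem119 lower. With CBD alone 0 were higher and 3 lower, against 1.71% and 1.13% (median -0.30), C1qa (-1.71), C1qc (-0.94) and Mef2c. In CBD_LPS against LPS 0 were higher and 4 lower, against 2.41% and 1.50% (median -0.31), which were C1qa (-1.43), C1qc (-0.70), Cx3cr1 (-1.83) and Mef2c, and their part in the AP-1 changes was not tested.

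Among 6334 genes detected on all arrays, those most like each AP-1 gene called in CBD_LPS against LPS were named by Pearson r over 24 arrays, which again mostly carries the treatments. For Jdp2 they were Slc7a11, the cystine transporter (r = 0.942), Nupr1 (0.925) and Apobec3 (0.924), and 2.10% of genes exceeded 0.8. For Fos they were Colec12 (0.904), Ptges3l (0.887) and Tgfbr2, a receptor of TGF-beta (0.875), and 0.73% exceeded 0.8. For Junb they were Ccl9 (0.948), Samhd1 (0.932) and Zfp36 (0.928). For Fosl2 they were Cers6 (0.924), Coq10b (0.923) and Gramd1b (0.887), and for Fosl1 Txnrd1 (0.910), Rbpms2 (0.897) and Ezr (0.895). Slc7a11 had the group order of Jdp2, from 11.93 in CBD_LPS over 10.90 in THC_LPS, 10.57 with LPS, 10.39 with CBD and 8.30 with THC to 7.57 in Cntr.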

How the data were processed

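RNA of BV-2 cells had been hybridized by the authors to 24 Illumina MouseRef-8 arrays, and groups were taken from the array labels. For 24611 probes the authors deposited an unnormalized signal intensity and a detection p-value, which sets the signal against negative control beads. The log2 values that the authors deposited were checked here and are the log2 of those signals after quantile normalization, with no background correction. These log2 values were used for every level and change. The number of arrays limits the precision.

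All arrays entered 1 linear model of the 6 group means (limma 3.58.1, R 4.3.3), without a filter. Moderated tests gave each comparison, and p-values were adjusted by Benjamini-Hochberg over all 24611 probes. A gene was represented by its brightest probe, called at an adjusted p under 0.05, and detected at a detection p under 0.05. Where no array of a group and every array of the other detected a gene, the fold is a bound against the lowest detected signal of each array. The script was tested on simulated data in which 200 probes changed. Probe symbols came from the platform annotation, which names 19852 probes.

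The members and gene lists were chosen with earlier results of these data known. All members are named. Of each list, at most the 3 largest changes without overlap between groups are named per comparison, and the remaining list genes named were chosen after their values were seen. The study's methods give 4 replicates per treatment and its results give 6, and the labels were followed. Alternatives changed the background correction, the scaling, the filter, the prior of the variance, the groups fitted, the threshold and the probe, or added the replicate block or array weights, or left out each array.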

Additional observations from a re-analysis of the deposited data

Results flagged for a closer look

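Of 44 sets of values tested, 1 for each AP-1 probe in each of the 4 groups of 4 or 6 arrays, 6 had an array far from the others, and chance alone flags about 1 in 20. Fosl2 on Cntr replicate 1 stood at 9.63, while the other Cntr arrays lay between 8.80 and 9.06. Jun on LPS replicate 2 stood at 8.84, against 9.28 to 9.43 on the other LPS arrays, and Jun on THC_LPS replicate 4 stood at 8.66, against 9.18 to 9.20. The remaining 3 belong to probes that no THC_LPS array detected, and all were highest on THC_LPS replicate 3, Batf at 7.18 (others 6.86 to 6.91), Fosb at 7.02 (others 6.37 to 6.43) and the dimmest Fosl2 probe at 6.97 (others 6.52 to 6.56).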

How the results depend on the processing

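Over 479 refits of the 15 gene changes called in LPS against Cntr, CBD against Cntr and CBD_LPS against LPS, 445 kept the call, 34 lost it and 0 changed direction. The refits include 24 per change that left out 1 array. Where that array belonged to neither compared group, the log2 change could not move, so these totals overstate the stability. The 5 changes kept under every alternative that gave them a value were the LPS responses of Junb, Jund, Fosb, Fosl2 and Jdp2. Of these, Fosb was detected on 0 arrays, and its log2 change ranged from -0.52 to -0.07 over the alternatives. The count of AP-1 genes called in CBD_LPS against LPS was 5 and became 3 with the compared groups alone and 2 with array weights. That in CBD against Cntr was 2 and became 1 with the compared groups alone. That in CBD_LPS against THC_LPS was 0 and became 1 with normexp background correction, 1 after a filter on dim probes and 3 at an unadjusted p of 0.005 or less, the threshold of the study, which also gave 1 in THC against Cntr and 2 in CBD against THC. Leaving out 1 array gave 6 to 8 genes for LPS against Cntr, 0 to 3 for CBD against Cntr, 0 to 5 for CBD_LPS against LPS, 0 to 2 for CBD_LPS against THC_LPS and 0 to 0 for the other 5. The 0 for CBD against Cntr came without CBD replicate 1, and the 0 for CBD_LPS against LPS without CBD_LPS replicate 2. Leaving out 1 array also added calls by limma. Jund in CBD versus Cntr was called without Cntr replicate 1 (adjusted p = 0.0377), CBD replicate 2 (0.00893) or THC replicate 1 (0.0441). In CBD_LPS versus THC_LPS, Fos was called without Cntr replicate 4, CBD_LPS replicate 1, THC_LPS replicate 1 or THC_LPS replicate 3 (adjusted p from 0.0256 to 0.0419), and Fosl1 without CBD_LPS replicate 1 (0.00947). Where a CBD group is left with 1 array, that array is assumed to vary like the other groups. The cause of these differences was not tested. At a detection p under 0.01, 7 genes in place of 8 were detected on at least 1 array.

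The replicate numbers were not treated as pairs in the main fit. The residuals of 16 of 44 same-number pairs correlated above 0.1. Their mean correlation was -0.02, against 0.01 for arrays with other numbers. Pairs of LPS and Cntr ran from -0.29 to 0.76. In CBD against Cntr and in CBD_LPS against THC_LPS both pairs lay above 0.1. These values cannot exclude a pairing of some samples. With the replicate block the counts of AP-1 genes called were 8, 2, 0, 4, 0, 0 and 0 for LPS, CBD and THC against Cntr, CBD_LPS and THC_LPS against LPS, CBD against THC and CBD_LPS against THC_LPS, and both tests of the LPS response gave 0. The AP-1 gene not called with the block in CBD_LPS against LPS was Fosl2 (log2 change -1.06, adjusted p = 0.0535 by limma). Over all probes the block called 346 in place of 697 in CBD against Cntr and 606 in place of 961 in CBD_LPS against LPS. The CBD groups hold 2 arrays each. Fosb and Batf stayed near the floor with background correction from the detection p-values, at 7.58 to 7.73 and 7.65 to 7.76, where the lowest value of any probe was 7.54.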

Other observations

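Dusp1, the dual specificity phosphatase that switches off MAP kinases, spread widely within groups, and its arrays were ordered much like those of Fos and Junb in some of them. These genes were chosen after their values were seen. In Cntr, Dusp1 stood at 11.77 and 11.83 on replicates 1 and 4 and between 9.82 and 10.69 on the other 4 arrays. Fos (11.36 and 11.77), Junb (11.03 and 11.62), Jun (9.07 and 8.92) and Fosl2 (9.63 and 9.06) also had their highest Cntr values on those 2 arrays. In THC_LPS, Dusp1 stood at 12.94 and 12.99 on replicates 2 and 4 and at 11.51 and 11.59 on replicates 1 and 3, and Fos (10.16 and 9.82 against 8.92 and 8.91) and Junb (12.25 and 12.23 against 11.38 and 11.69) split the same arrays in the same way. Rhob (11.64 and 11.66 against 11.02 and 10.78) and Zfp36 (12.85 and 12.94 against 12.26 and 12.17) did so too.

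In CBD_LPS the order differed. Dusp1 stood at 12.19 on replicate 1 and 13.92 on replicate 2, where Fos (8.42 and 7.76) and Junb (11.20 and 10.79) were lower on replicate 2. In CBD, Dusp1 stood at 13.25 and 11.10 on replicates 1 and 2, with Fos (9.82 and 9.39) in the same order and Junb (10.42 and 10.90) in the reverse. Over 24 arrays, after the group means were removed, the Pearson correlation of Dusp1 was 0.804 with Fosl2, 0.682 with Fos, 0.593 with Junb, 0.592 with Jund, 0.366 with Jun and -0.06 with Jdp2. That of Zfp36 was 0.836 with Junb and 0.662 with Fos. Among the 8933 other probes detected on all arrays 0.772% correlated with Junb above 0.8 in this way, 0.470% with Fosl2 and 0.291% with Fos. These are descriptions of arrays that share a line and a platform. The array files used here name no batch, and its part was not tested.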
